A study of Gallus gallus with 16 samples.

Results

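The genes described here are those of the chicken pineal array whose symbols mark them as RAB GTPases, SNARE proteins, coatomer subunits or vacuolar protein sorting (VPS) proteins. They are all probes with a symbol that begins with RAB and a digit, STX and a digit, VAMP, SNAP and 2 digits, VPS, COPA, COPB, COPG or COPZ, and probes of 1 symbol were averaged. This gave 65 genes from 112 probes, out of 12532 genes tested. They comprised 24 RAB GTPases, 2 proteins with RAB names that act on RAB GTPases (RAB11FIP5 and RAB3GAP2), 7 syntaxins, 3 VAMP proteins, 3 proteins of the SNAP-25 family, 5 subunits of the COPI coat, 7 genes of the HOPS and CORVET tethers with VPS33B, 4 of retromer, GARP and VPS45, 4 of the ESCRT machinery with VPS4B, 4 VPS13 proteins and 2 others. The last pair carries names that the rule takes in although their roles differ. SNAP91 is a clathrin assembly protein, and VPS72 is known as a subunit of chromatin remodelling complexes. No probe with a symbol beginning with COPZ was found among the 65 genes. The 12532 genes tested also hold probes with no gene symbol, each entered as a gene of its own. Before the filter these were 5981 of the 15609 probes kept. "All genes" below means this whole set, not annotated genes alone.

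RAB GTPases mark the surfaces of membranes and recruit the motors, tethers and other effectors that carry a vesicle to its target. SNARE proteins (syntaxins, VAMP proteins and the SNAP-25 family) pair between vesicle and target and drive the fusion of both membranes, while the COPI coat returns material through the Golgi apparatus to the endoplasmic reticulum, and HOPS, CORVET, ESCRT and retromer sort cargo along endosomes and lysosomes. Pineal cells of birds are photoreceptive: they pass membrane and photopigment proteins to their outer segments, and they release melatonin, which crosses membranes without vesicles.

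The birds were Rhode Island Red chicks, male and 1 week old, and pineal RNA was taken in pools of 5 to 6 glands, and each of 16 pools was hybridised with a reference of all pools on a two-colour cDNA array. The labels place the dark controls under 12 h light and 12 h dark, and zeitgeber time (ZT) 0 is lights-on. The comparisons ask how light at 2 phases of the night, or a longer day, changed pineal transcripts. In paradigm 1, late-night light from ZT22 to ZT24 (4 pools, glands taken at ZT0) was set against birds left in darkness until ZT0 (4 pools). In paradigm 2, early-night light from ZT12 to ZT14 (2 pools, glands taken at ZT14) was set against birds in darkness from ZT12 (2 pools). In paradigm 3, a long day (2 pools, glands taken at ZT14), which the titles give as 17 h light and 7 h dark and the design text as 15 h and 9 h, was set against its own dark ZT14 controls (2 pools). The labels name 25 birds for a group, no genotype, and no repeat of a paradigm on other birds. Slide numbers in the labels began with 39 (slide series 39) for late-night light pool 4 and dark ZT0 pools 3 and 4. Those of the other pools began with 32 (slide series 32).

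Values are deposited log ratios between a pool and the reference, taken as log2, for which the numerator is not stated. "Higher" therefore means a higher deposited ratio, and all signs turn together if the reference was the numerator. A ratio of this kind compares pools for 1 gene and says nothing of the level of 1 gene relative to another. Signal over background is unknown, and how far it limits the precision was not tested. The small number of arrays limits the precision as well. In whole glands, fewer cells of a type and less RNA per cell cannot be told apart. A gene was called where limma's Benjamini-Hochberg adjusted p, over all 12532 genes, was under 0.05. Errors after ± are standard errors of that fit, which shares 1 spread per gene among all 6 groups.

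The 4 arrays of paradigm 3 stood apart from the other 12. The SD over genes was between 0.792 and 1.05 on the paradigm 3 arrays, against 0.237 to 0.538 on the others, and the paradigm 3 arrays correlated with each other at 0.507 to 0.600 and with those of paradigm 1 at -0.290 to -0.0677 over probes. Long-day light and its dark controls lie within paradigm 3, but a comparison of ZT0 with ZT14 sets paradigm 1 against paradigms 2 and 3, so time of day and paradigm cannot be told apart there. Counts of calls between ZT0 and ZT14, and the differences of some named genes, are given with and without these arrays.

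All 65 genes had a value on all 16 arrays, as a mean of the probes measured there. For STX16, 1 of its 2 probes had no value in the long-day pools, and the probes correlated at -0.179 over the others. The spread of a gene over the 16 pools (highest minus lowest log2 ratio) had a median of 1.33 in the 65 genes, against 1.64 in all genes. It exceeded 2 in 17 of the 65 genes (26.2%), against 35.8% of all genes. RAB27A, a GTPase of melanosome and secretory granule transport, had the widest spread of the 65 with 4.87, followed by RAB10 with 4.78, STX8 with 4.13, RAB33B with 3.85 and COPB1 with 3.64. The narrowest spreads were those of VPS4B, the ATPase that recycles ESCRT complexes, with 0.31, of the early endosome GTPase RAB5C with 0.36 and of RAB1B, which acts between endoplasmic reticulum and Golgi apparatus, with 0.45. VPS4B, RAB5C and RAB1B were means of 3, 2 and 4 probes, whereas RAB27A, RAB10, STX8 and RAB33B had 1 probe each and COPB1 had 2. Over the 12 pools of paradigms 1 and 2 the spread exceeded 2 in 3 of the 65 genes: RAB27A, RAB11FIP5 and VPS11. The RAB27A ratio of -3.15 in a paradigm 3 dark pool and 1.72 in a late-night light pool were the extremes of that gene.

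**Figure D1:**
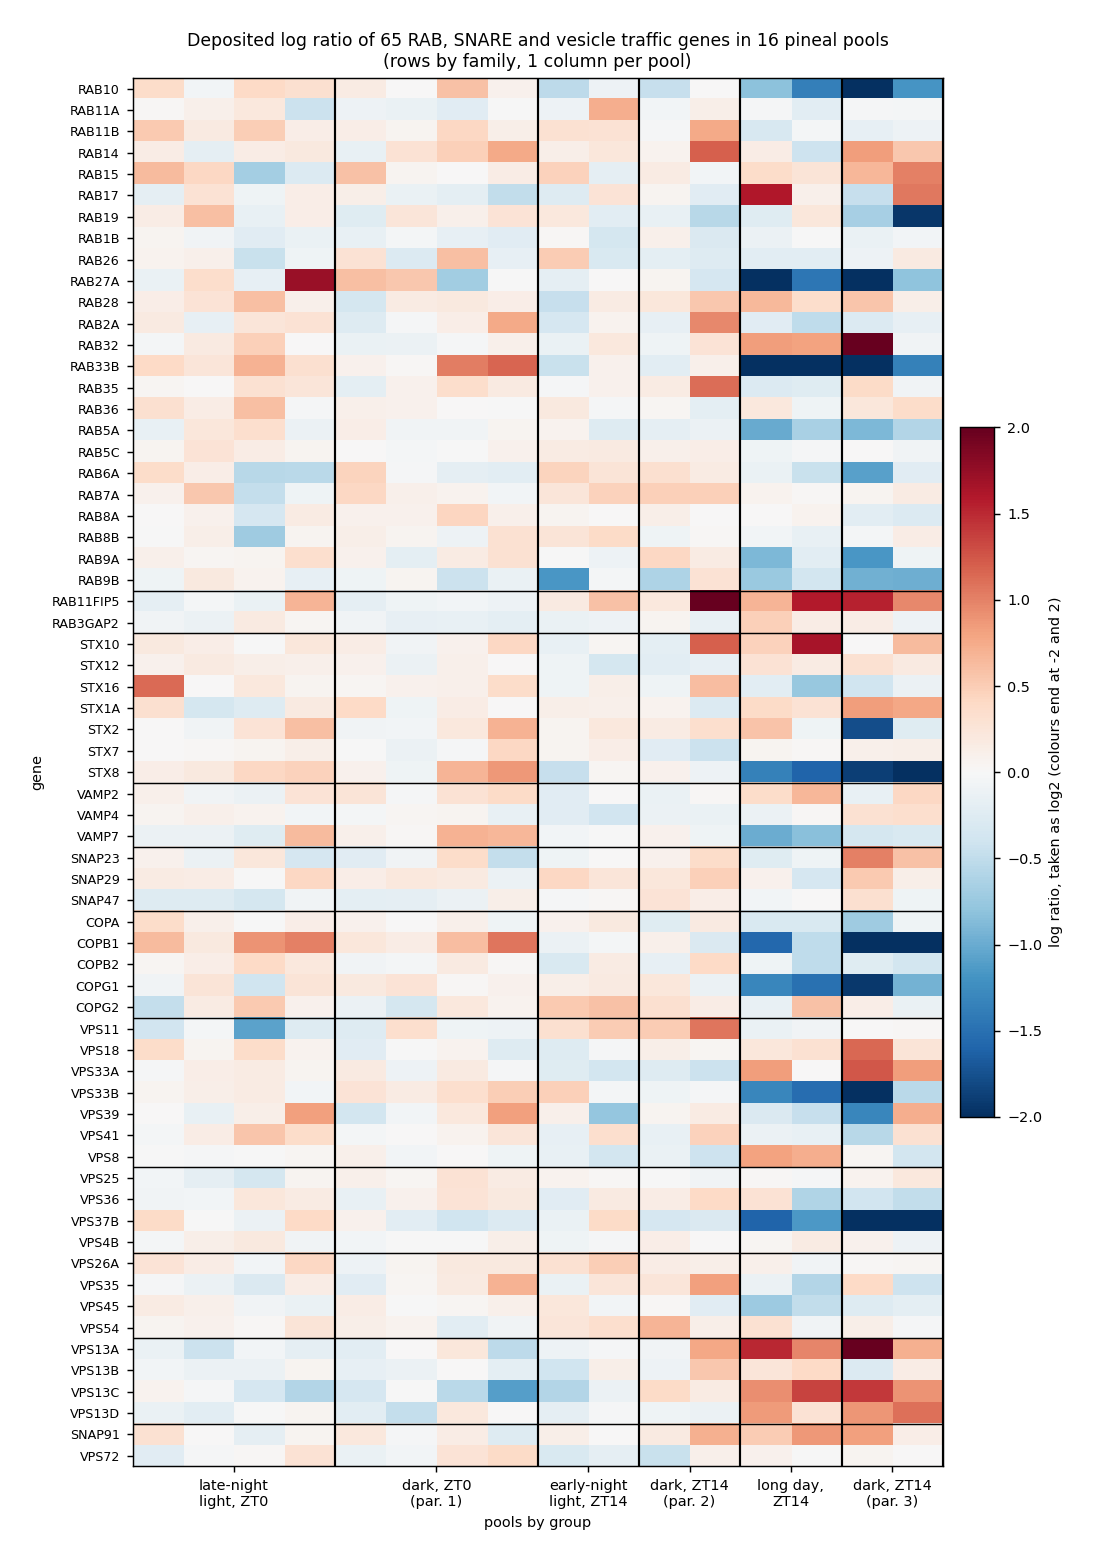
Deposited log ratio (taken as log2, colours ending at -2 and 2) of the 65 genes in rows, ordered by family and separated by horizontal lines, in each of the 16 pools in columns, ordered by group. Strong colours lie mostly in the 4 columns of paradigm 3 at the right, where COPB1, STX8, RAB33B and VPS37B are low and VPS13A and VPS13C are high.

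Late-night light left the 65 genes without a call. None passed the adjusted test, with 0% of all 12532 genes called, and 1 of the 65 (1.54%) had an unadjusted p under 0.05, against 4.21% of all genes. The ratio was higher after late-night light than in darkness for 40 of the 65 genes, with a median difference of 0.045, against -0.004 over all genes. With 1 pool left out, the count of 40 moved between 33 (without dark ZT0 pool 2) and 43 (without dark ZT0 pool 3). The median difference was 0.074 within slide series 32 and -0.027 within series 39, which holds 1 light pool, so this lean was not stable. The series 32 fit holds late-night light pool 3, with an SD over genes of 0.463. That SD was 0.237 to 0.320 on its other pools and 0.445 to 0.538 on those of series 39. For 63 of the 65 genes the 95% interval of the difference lay within -1 and 1, so that a change beyond 2-fold was outside the interval. The gene with the smallest p was VPS25, an ESCRT-II subunit. Its log2 ratios were -0.05, -0.18, -0.35 and 0.06 after late-night light, against 0.10, 0.04, 0.28 and 0.16 in darkness at ZT0, a difference of -0.28 ± 0.12 (limma adjusted p = 1.00). The highest light pool lay between the lowest and the next dark pool. VPS11, a core subunit of HOPS and CORVET, had ratios of -0.39, -0.04, -1.07 and -0.25 after late-night light, against -0.26, 0.33, -0.09 and -0.10 in darkness, and differed by -0.41 ± 0.22 (limma adjusted p = 1.00), with overlapping pools. VPS37B, an ESCRT-I subunit, had ratios of 0.39, -0.01, -0.12 and 0.40 after late-night light, against 0.09, -0.21, -0.41 and -0.27 in darkness, and differed by 0.36 ± 0.19 (limma adjusted p = 1.00), again with overlap. The groups were free of overlap for 1 of the 65 genes (1.54%), against 4.59% of all genes. This was VPS33B, with a difference of -0.25 ± 0.24, and it was picked out after its values were seen.

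Early-night light gave no call among the 65 genes either, and 0.00798% of all genes were called. An unadjusted p under 0.05 was found for 2 of the 65 (3.08%), against 4.2% of all genes. The difference was positive in 24 of the 65 genes, with a median of -0.066, against 0.000 over all genes. With 1 pool left out, that median ran from -0.127 (without early-night light pool 2) to 0.007 (without paradigm 2 dark pool 2). Against all 4 ZT14 dark pools, 32 of the 65 differences were positive and the median was -0.002. STX7, a syntaxin of late endosomes, had ratios of 0.05 and 0.14 after early-night light, against -0.23 and -0.43 in darkness at ZT14, which is a difference of 0.42 ± 0.19 (limma adjusted p = 1.00). RAB35, a GTPase of endocytic recycling, had ratios of -0.02 and 0.08 after early-night light, against 0.17 and 1.12 in darkness, a difference of -0.61 ± 0.28 (limma adjusted p = 1.00). RAB28, a GTPase linked to the shedding of photoreceptor outer segments in mouse, had ratios of -0.46 and 0.16 after early-night light, against 0.23 and 0.54 in darkness, a difference of -0.53 ± 0.27 (limma adjusted p = 1.00). With 1 pool left out, the RAB35 difference ran from -1.09 to -0.14, the smallest without paradigm 2 dark pool 2, and that of RAB28 from -0.84 to -0.23, the smallest without early-night light pool 1. In STX7, RAB35 and RAB28 the pools did not overlap, as in 20 of the 65 genes overall (35.2% of all genes). With 2 pools a group the 95% interval lay within -1 and 1 for 40 of the 65 genes, and in the other 25 it reached beyond 2-fold.

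The long day raised 1 of the 65 genes and lowered none (1.54%), while 2.94% of all genes were called (1.48% higher and 1.46% lower). The called gene was VPS8, the CORVET subunit that binds RAB5 on early endosomes. The VPS8 ratios were 0.80 and 0.72 in the long day, against 0.04 and -0.36 in its dark controls, and the difference was 0.93 ± 0.18 (limma adjusted p = 0.0173). Both long-day pools lay above every other pool of the series, of which the highest had 0.10. The long-day difference of the pair of VPS8 probes was 0.46 for one and 1.39 for the other, and their correlation over the pools was 0.289. Settings under which the call was lost include array weights, arrays scaled to a common SD, quantile normalization and the 4 compared arrays alone.

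COPB1, the beta subunit of the COPI coat, had ratios of -1.57 and -0.50 in the long day, against -2.57 and -2.43 in its dark controls, a difference of 1.47 ± 0.37 (limma adjusted p = 0.0517). SNAP23, a widely expressed SNARE of the SNAP-25 family, had ratios of -0.25 and -0.08 in the long day, against 1.00 and 0.58 in darkness, a difference of -0.96 ± 0.27 (limma adjusted p = 0.0731). Neither gene's pools overlapped, and neither passed the test over all pools. COPB1 passed without long-day pool 1 (2.00, limma adjusted p = 0.0143), and SNAP23 without paradigm 3 dark pool 4 (-1.17, limma adjusted p = 0.0394). An unadjusted p under 0.05 was found for 11 of the 65 genes (16.9%), against 17.8% of all genes, and groups without overlap in 25 of the 65, against 35.8% of all genes. Across families, the 5 COPI subunits had long-day differences of 0.00 to 1.47, of which COPA, COPB2 or COPG1 turned negative with arrays scaled to a common SD or quantile-normalized, and the 3 SNAP-25 family genes had differences of -0.96 to -0.14. For 42 of the 65 genes the 95% interval of the difference lay within -1 and 1.

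Averaged over both paradigms sampled at ZT14, light against darkness gave 0 calls among the 65 genes, and 0.295% of all genes were called. The genes with the smallest p were VPS8 with a mean light difference of 0.47 ± 0.13 (limma adjusted p = 0.144), VPS37B with 0.68 ± 0.19 (limma adjusted p = 0.167) and SNAP23 with -0.61 ± 0.19 (limma adjusted p = 0.203). Without paradigm 3 dark pool 3, VPS8 passed with 0.57 (limma adjusted p = 0.0314) and VPS37B with 0.82 (limma adjusted p = 0.0478). An unadjusted p under 0.05 occurred in 8 of the 65 genes (12.3%), the same share as in all genes (12.3%). The late-night light effect differed from the ZT14 light effect in 0 of the 65 genes (0.0718% of all genes called), and the long-day effect from the early-night light effect in 0 of the 65 (0.0239% of all genes called). An unadjusted p under 0.05 was reached by 3 of the 65 genes (4.62%, with 8.39% of all genes) in the first of these tests and by 7 (10.8%, with 10.5% of all genes) in the other.

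**Figure D2:**
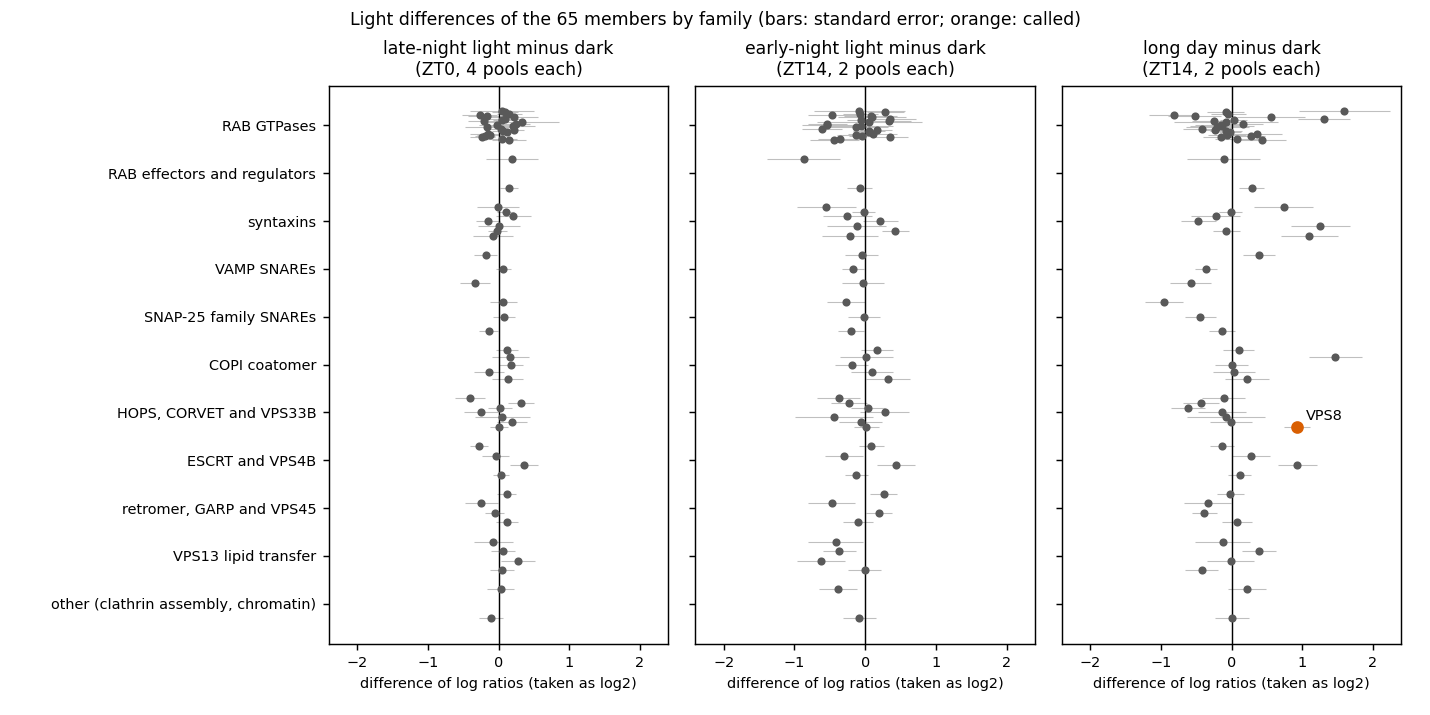
Difference of the log ratio (taken as log2) between light and darkness for each of the 65 genes, in rows by family, after late-night light (left), early-night light (middle) and a long day (right); bars are standard errors of the fit. VPS8 in the long day, at 0.93, is the called gene.

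Of the proteins that release synaptic vesicles in neurons, STX1A and VAMP2 were on the array under the symbols searched, and RAB3A, SNAP25 and VAMP1 were not analysed here. STX1A, the plasma membrane syntaxin of regulated secretion, had ratios of 0.32, -0.36, -0.26 and 0.18 after late-night light, against 0.41, -0.09, 0.14 and 0.0035 in darkness at ZT0, and of 0.12 and 0.10 after early-night light, against 0.06 and -0.27 in darkness. In the long day STX1A had 0.38 and 0.29, against 0.84 and 0.78 in its dark controls. The STX1A light differences were -0.15 ± 0.17 (late-night), 0.21 ± 0.24 (early-night) and -0.47 ± 0.24 (long day), none of them called. STX1A had 1 probe, and the gene ID of that probe was not found in the reference gene table. VAMP2, the vesicle SNARE that pairs with it, had ratios of 0.37 and 0.67 in the long day, against -0.15 and 0.41 in its dark controls, a difference of 0.39 ± 0.23 that was not called and that was 0.11 without paradigm 3 dark pool 3 and 0.67 without pool 4. VAMP2 ratios lay between -0.12 and 0.27 after late-night light, against -0.02 and 0.39 in darkness, and were -0.22 and 0.01 after early-night light, against -0.13 and 0.02 in darkness. The VAMP2 pools overlapped in all 3 comparisons.

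Comparing ZT0 with ZT14 also compares paradigms and, in part, slide series, since series 39 holds ZT0 pools alone. With slide series as a block, 7 of the 65 genes were called in darkness (1185 of all 12532 genes). After light 5 were called in that fit (1199 of all 12532 genes). In the dark controls, 13 of the 65 genes differed between ZT0 and ZT14, 8 higher and 5 lower at ZT0, which is 20% of the 65 against 19% of all genes (8.61% higher and 10.4% lower). In the pools that had received light, 5 of the 65 genes were higher at ZT0 and none lower (7.69%), against 11.7% of all genes (5.36% higher and 6.35% lower). Both shares lie near or under the background, so the counts are not a result about these families. An unadjusted p under 0.05 was found in 18 of the 65 in darkness (27.7%, with 32.7% of all genes) and in 15 after light (23.1%, with 27.7% of all genes). Pools at ZT0 and ZT14 did not overlap in 5 of the 65 in darkness (12.9% of all genes) and in 6 after light (11.8% of all genes). COPB1, RAB33B, STX8 and VPS37B were called in both comparisons, which use different pools. That is 4 of the 65 genes, against 6.98% of all genes. In darkness at ZT0, COPB1, RAB33B and STX8 had higher ratios in both pools of slide series 39 than in both pools of series 32. VPS37B had lower ratios in the series 39 pools.

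Of the 5 COPI subunits, COPB1 and COPG1 were called in darkness. The COPB1 ratios were 0.23, 0.16, 0.61 and 1.07 in darkness at ZT0, against -2.57 and -2.43 in the paradigm 3 dark pools and 0.10 and -0.28 in the paradigm 2 dark pools at ZT14. The difference was 1.81 ± 0.26 (limma adjusted p = 0.00114), and every ZT0 pool lay above every ZT14 pool. After light, COPB1 had 0.63, 0.20, 0.90 and 1.00 at ZT0, against -1.57 and -0.50 in the long day and -0.11 and -0.03 after early-night light, a difference of 1.24 ± 0.26 (limma adjusted p = 0.0117), again without overlap. COPG1, a gamma subunit, rose by 0.84 ± 0.21 at ZT0 in darkness (limma adjusted p = 0.0146). Its ratios were between 0.03 and 0.28 in darkness at ZT0, against -1.92 and -0.94 in paradigm 3 and 0.22 and -0.12 in paradigm 2 at ZT14, so the low values were those of paradigm 3. With 1 pool left out at a time, both COPB1 calls stayed, the COPG1 call in darkness was lost without paradigm 2 dark pool 2, and COPG1 passed after light without late-night light pool 3 (0.77, limma adjusted p = 0.048). The remaining subunits COPA, COPB2 and COPG2 had differences of 0.24, 0.12 and -0.17 in darkness, none of them called.

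Among the SNARE proteins, STX8, a syntaxin of endosome fusion, was higher at ZT0. Its ratios were 0.08, -0.09, 0.68 and 0.87 in darkness at ZT0, against -1.89 and -3.26 in the paradigm 3 dark pools and 0.09 and -0.09 in the paradigm 2 dark pools at ZT14, a difference of 1.67 ± 0.28 (limma adjusted p = 0.00214). After light STX8 had 0.13, 0.20, 0.41 and 0.47 at ZT0, against -1.34 and -1.60 in the long day and -0.46 and 0.03 after early-night light, a difference of 1.15 ± 0.28 (limma adjusted p = 0.0219). In darkness the ZT0 pools overlapped with those of paradigm 2 and not with those of paradigm 3. SNAP23 was lower at ZT0 in darkness by 0.61 (-0.61 ± 0.19, limma adjusted p = 0.0402), with ratios of -0.22, -0.07, 0.37 and -0.48 at ZT0, against 1.00 and 0.58 in paradigm 3 and 0.08 and 0.37 in paradigm 2 at ZT14. After light the SNAP23 difference was 0.07 ± 0.19 and not called. With 1 pool left out at a time, the STX8 call in darkness stayed in all 8 fits, its call after light was lost in 3 of 8 (without early-night light pool 1 or late-night light pool 3 or 4), and the SNAP23 call was lost in 6 of 8, staying without dark ZT0 pool 3 or paradigm 3 dark pool 4. The 3 VAMP genes had differences of -0.12 to 0.54 in darkness, none of them called.

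RAB33B, a Golgi GTPase that also acts in autophagy, was the called RAB gene with the smallest p. Its ratios were 0.09, 0.02, 1.02 and 1.17 in darkness at ZT0, against -2.68 and -1.36 in paradigm 3 and -0.21 and 0.11 in paradigm 2 at ZT14, a difference of 1.61 ± 0.32 (limma adjusted p = 0.0045). After light the ratios were 0.40, 0.25, 0.69 and 0.32 at ZT0, against -2.46 and -1.99 in the long day and -0.44 and 0.09 after early-night light, a difference of 1.62 ± 0.32 (limma adjusted p = 0.00856). After light no ZT0 pool overlapped with a ZT14 pool. A further 3 RAB GTPases were called and fall outside the rule for named genes: RAB10, of exocytosis, rose by 1.67 ± 0.46 and RAB19 by 0.92 ± 0.26 in darkness (limma adjusted p = 0.0225 and 0.0271), and RAB5A, of early endosomes, rose by 0.53 ± 0.16 after light (limma adjusted p = 0.0432). RAB10 had a ratio of -4.20 in dark paradigm 3 pool 3 and -1.17 in pool 4, the lowest of its dark pools. For the remaining RAB GTPases the differences in darkness lay between -0.57 (RAB32) and 1.17 (RAB27A), and neither gene was called. RAB11FIP5, an effector that binds the recycling GTPase RAB11, had ratios of -0.17, -0.09, -0.05 and -0.10 in darkness at ZT0, against 1.54 and 0.95 in paradigm 3 and 0.22 and 2.29 in paradigm 2 at ZT14, a difference of -1.35 ± 0.37 (limma adjusted p = 0.0215). All 4 dark pools at ZT0 lay below all ZT14 dark pools. After light RAB11FIP5 differed by -0.68 and was not called. With 1 pool left out at a time, both RAB33B calls stayed. The RAB10 call was lost without dark ZT0 pool 3 or paradigm 2 dark pool 1, with differences of 0.91 to 2.42 over the 8 fits, the lowest without paradigm 3 dark pool 3. The RAB19 call was lost in 5 of 8 fits (without dark ZT0 pool 2, 3 or 4, paradigm 2 dark pool 2 or paradigm 3 dark pool 4) and the RAB5A call in 6 of 8, staying without late-night light pool 1 or long-day pool 2. RAB11FIP5 was not called without dark ZT0 pool 4, paradigm 2 dark pool 2 or paradigm 3 dark pool 3, and its differences ran between -1.87 and -0.84.

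VPS33B, a Sec1/Munc18-type protein of a complex related to the HOPS tether, and VPS37B were the called VPS genes that rose. VPS33B had ratios of 0.27, 0.17, 0.34 and 0.50 in darkness at ZT0, against -1.99 and -0.55 in paradigm 3 and -0.08 and -0.02 in paradigm 2 at ZT14, a difference of 0.98 ± 0.24 (limma adjusted p = 0.014), without overlap. After light its difference was 0.66 ± 0.24 and not called. VPS37B had ratios of 0.09, -0.21, -0.41 and -0.27 in darkness at ZT0, against -2.03 and -2.58 in paradigm 3 and -0.33 and -0.29 in paradigm 2 at ZT14, a difference of 1.11 ± 0.19 (limma adjusted p = 0.00264). The paradigm 2 pools lay within the ZT0 range, and the paradigm 3 pools far below it. After light the VPS37B ratios were 0.39, -0.01, -0.12 and 0.40 at ZT0, against -1.60 and -1.15 in the long day and -0.13 and 0.38 after early-night light, a difference of 0.79 ± 0.19 (limma adjusted p = 0.0227). With 1 pool left out at a time, the calls of VPS33B and VPS37B in darkness stayed in all 8 fits, and the VPS37B call after light was lost in 4 of 8 (without early-night light pool 1, late-night light pool 1 or 4, or long-day pool 1). None of the 4 genes of retromer, GARP and VPS45 was called, with differences of -0.24 to 0.24 in darkness.

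The VPS13 genes encode large proteins that carry lipids between membranes, and 3 of the 4 were called lower at ZT0 than at ZT14 in darkness. Of all genes, 10.4% were called lower there. With ZT14 from paradigm 2 alone, none of the VPS13 genes was called. VPS13C had ratios of -0.34, -0.0049, -0.53 and -1.09 in darkness at ZT0, against 1.41 and 0.90 in paradigm 3 and 0.38 and 0.16 in paradigm 2 at ZT14, a difference of -1.21 ± 0.24 (limma adjusted p = 0.00474), without overlap. VPS13A had ratios of -0.22, 0.01, 0.22 and -0.52 in darkness at ZT0, against 2.01 and 0.71 in paradigm 3 and -0.07 and 0.77 in paradigm 2, a difference of -0.98 ± 0.27 (limma adjusted p = 0.0242). VPS13D had ratios of -0.21, -0.48, 0.21 and 0.0014 in darkness at ZT0, against 0.89 and 1.09 in paradigm 3 and -0.08 and -0.11 in paradigm 2, a difference of -0.57 ± 0.17 (limma adjusted p = 0.0323). Its mean was -0.12 in darkness at ZT0 and -0.10 in the paradigm 2 dark pools, so its difference came from paradigm 3. The paradigm 3 pools were above every ZT0 pool in these 3 genes. VPS13B had a difference of -0.20 and was not called. With 1 pool left out at a time, the VPS13C call stayed in all 8 fits, the VPS13A call was lost in 4 of 8 (without dark ZT0 pool 1 or 4, paradigm 2 dark pool 2 or paradigm 3 dark pool 3), and the VPS13D call in 6 of 8, staying without dark ZT0 pool 3 or paradigm 3 dark pool 3. After light the 4 differences were -0.79 (VPS13A), -0.62 (VPS13C), -0.31 (VPS13D) and -0.15 (VPS13B), and 0 of the 4 were called.

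**Figure D3:**
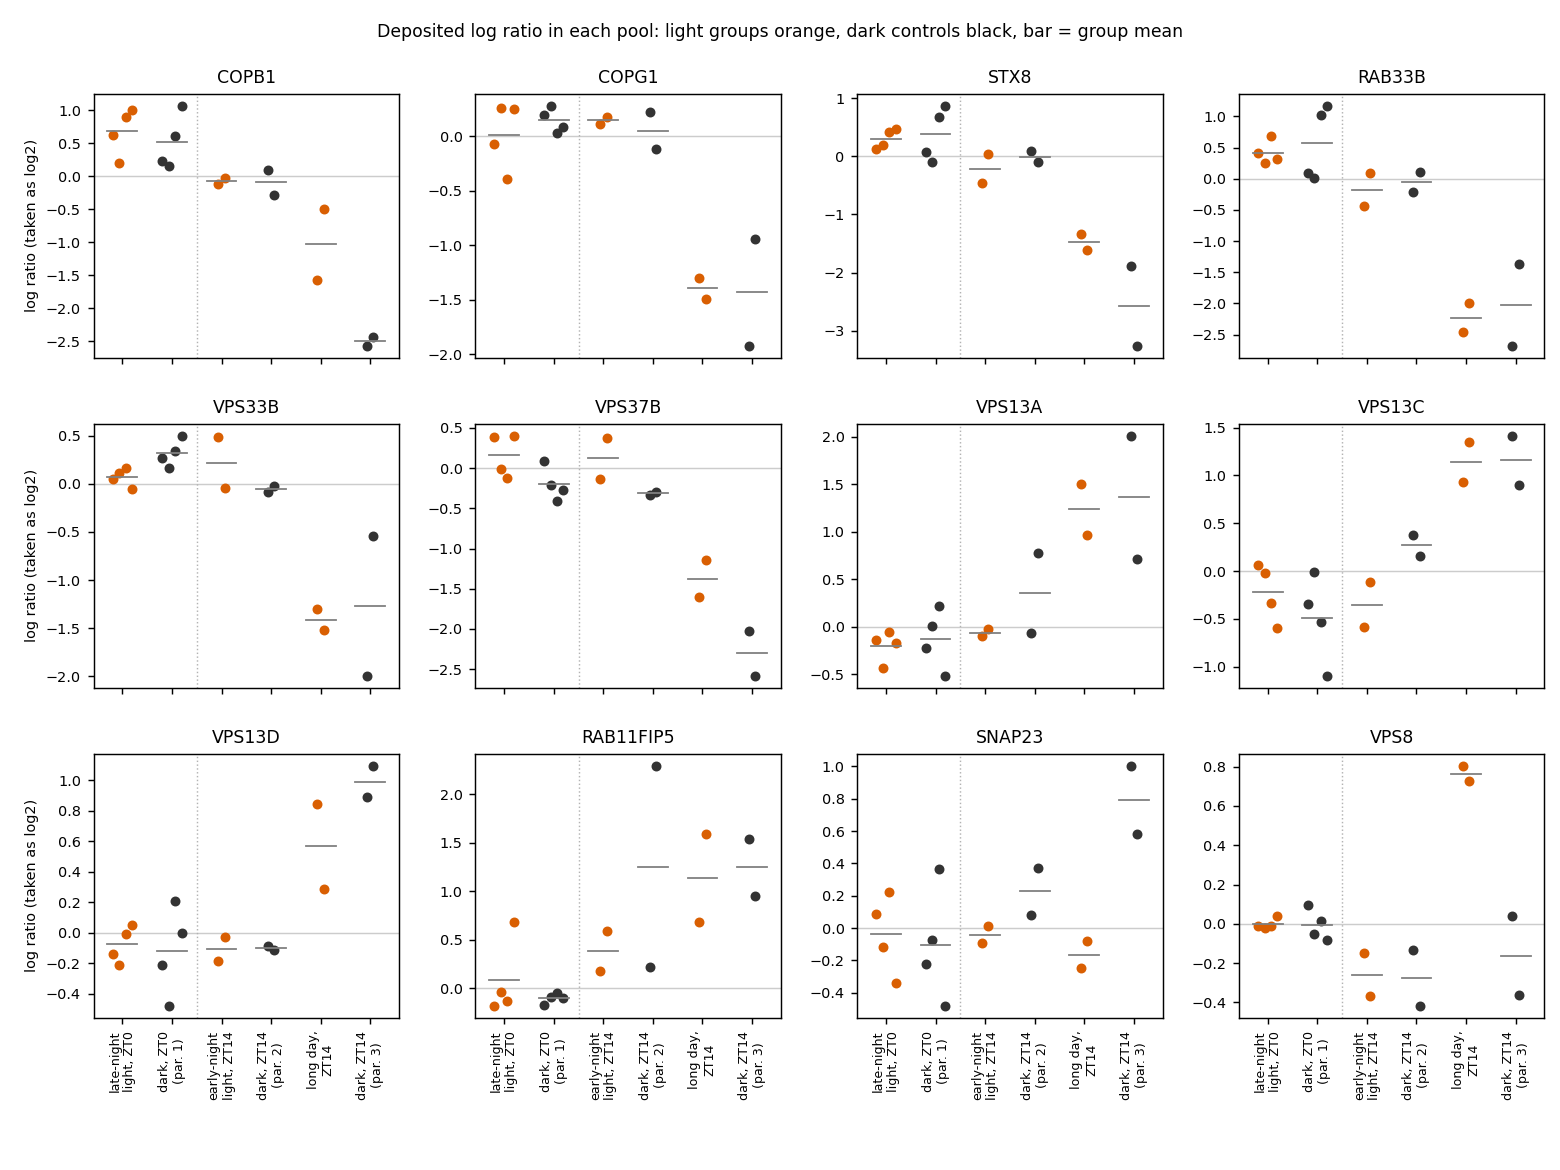
Deposited log ratio (taken as log2) in each pool for 11 genes called between ZT0 and ZT14 and for VPS8, with light groups in orange, dark controls in black and bars at the group means; the dotted line parts ZT0 from ZT14. In COPB1, COPG1, STX8, RAB33B, VPS33B and VPS37B the pools of the long day and of its dark controls lie lowest, and in VPS13A and VPS13C they hold the highest means.

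The calls between ZT0 and ZT14 depended on paradigm 3. With the ZT14 dark pools of paradigm 2 alone, 0 of the 65 genes were called (0.0319% of all genes), and with those of paradigm 3 alone 21 were called (34% of all genes). After light the counts were 0 of 65 with early-night light alone as ZT14 (0.0878% of all genes) and 14 with the long day alone (27% of all genes). A fit without the paradigm 3 arrays also called none of the 65 in either comparison. With all 4 ZT14 dark pools as 1 group, the spread takes in the difference between paradigms 2 and 3. That fit called 0 of the 65 genes in darkness (98 of all 12532 genes). With paradigm 2 alone an unadjusted p under 0.05 was found for 6 of the 65 genes in darkness, against 10.4% of all genes, and for 4 of the 65 after light, against 9.46% of all genes. The 13 genes called in darkness kept their sign against paradigm 2 alone, with sizes of 0.02 to 1.36, and 12 of the 13 were larger against paradigm 3 alone, with sizes of 0.90 to 3.02 over the 13. COPB1 differed by 0.61 against paradigm 2 and by 3.02 against paradigm 3, and VPS37B by 0.12 and 2.11. RAB11FIP5 was the exception, with differences of -1.36 against paradigm 2 and -1.35 against paradigm 3. After light 4 named genes had the opposite sign against early-night light alone: VPS33B with -0.15, COPG1 with -0.13, VPS13C with 0.13 and VPS13D with 0.03.

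Across the 65 genes, the ZT0 minus ZT14 difference in the light pools and that in the dark controls correlated with Pearson's r = 0.854 and Spearman's rho = 0.705, against 0.727 and 0.668 across all genes. Both comparisons use separate pools, but each draws part of its ZT14 pools from paradigm 3, and genes are not independent replicates, so these values are a description.

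**Figure D4:**
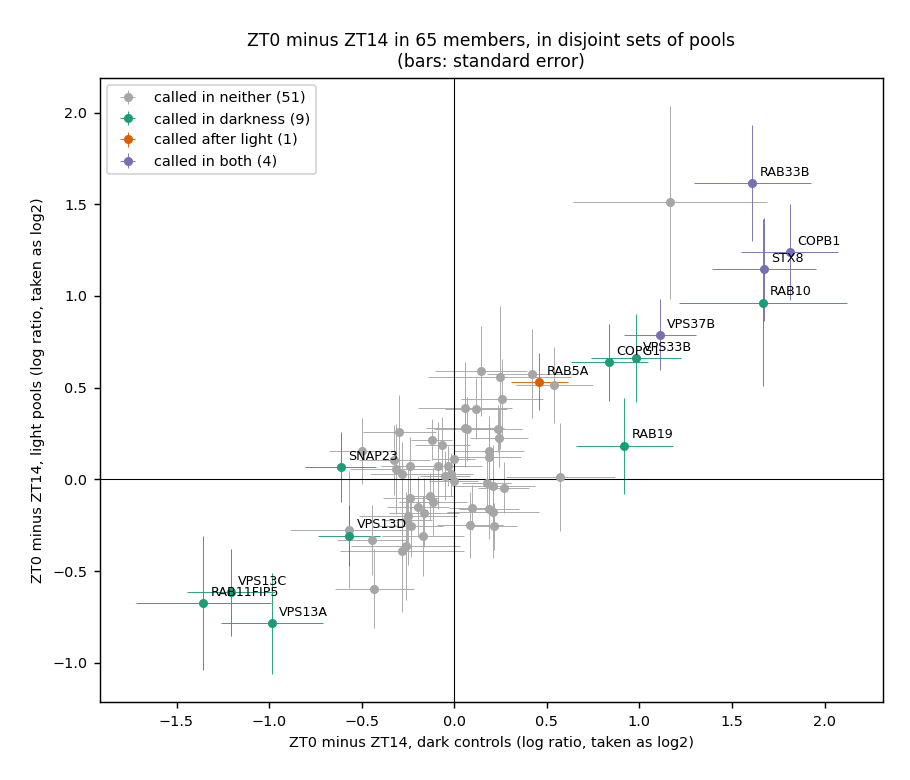
ZT0 minus ZT14 difference (taken as log2) of the 65 genes in the light pools (vertical axis) and in the dark controls (horizontal axis), with standard errors of the fit as bars and colours for calls. COPB1, RAB33B, STX8 and VPS37B, called in both, lie at the upper right, and RAB11FIP5, VPS13C and VPS13A at the lower left.

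The dark controls of both paradigms sampled at ZT14 differed at 1 nominal time. Of the 65 genes, 3 were higher and 8 lower in the dark pools of paradigm 3 than in those of paradigm 2, which is 16.9%, against 20.6% of all genes (11.2% higher and 9.4% lower). The 8 lower genes were STX8 with -2.57 ± 0.40, RAB10 with -2.46 ± 0.64, COPB1 with -2.41 ± 0.37, VPS37B with -1.99 ± 0.28, RAB33B with -1.97 ± 0.45, COPG1 with -1.48 ± 0.29, STX2 with -1.26 ± 0.42 and VPS33B with -1.22 ± 0.34. The 3 higher genes were VPS33A, the Sec1/Munc18-type subunit of HOPS and CORVET, with 1.39 ± 0.24, VPS13D with 1.09 ± 0.24 and STX1A with 0.91 ± 0.24. An unadjusted p under 0.05 was found in 25 of the 65 (38.5%, with 34.7% of all genes), and 40 of the 65 had pools without overlap (57.8% of all genes). Limma adjusted p-values of these 11 called genes ran between 0.000509 (VPS37B) and 0.0476 (STX2). With quantile normalization or arrays scaled to a common SD, 0 of the 65 were called (18 and 29 of all 12532 genes). The compared arrays alone also gave 0 of the 65 (0 of all genes). Of the 13 genes called between ZT0 and ZT14 in darkness, 8 were also called here, and both comparisons share the ZT14 dark pools. All 5 COPI subunits were lower in the paradigm 3 controls, from -2.41 to -0.23, of which COPB1 and COPG1 were called. Of all genes, 52.7% were higher in those controls. The probes of COPB1, COPG1 and COPG2 were all negative here, whereas those of COPA ran from -1.77 to 0.54 and those of COPB2 from -1.12 to 0.005. With 1 of the 4 pools left out at a time, the calls of RAB10, RAB33B and STX1A were lost without paradigm 2 dark pool 2 or paradigm 3 dark pool 3, and those of STX2 and VPS33B also without paradigm 2 dark pool 1.

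Probes of 1 gene often disagreed. Among 30 of the 65 genes with more than 1 probe, the lowest correlation between probes over the 16 pools had a median of -0.006, and all probes of a gene had the same sign of the ZT0 minus ZT14 difference in darkness in 11 of the 30. COPB1 had differences of 1.74 and 1.89 for its probes, which correlated at 0.810. VPS33B had 3 probes between 0.59 and 1.55 that correlated at 0.825 to 0.933, and VPS13C had probes at -1.39 and -1.02 that correlated at 0.570. COPG1 had probes at -0.28 and 1.96 that correlated at -0.124, and SNAP23 had probes at -1.27 and 0.04. RAB5A, called after light, had probe differences of 1.45, 0.20 and -0.06 there. VPS13D, called in darkness, had probe differences of -1.16, -0.25 and -0.29. In COPG1, SNAP23, RAB5A and VPS13D 1 probe of each carried most of the called difference. STX8, RAB33B, VPS37B, VPS13A, RAB11FIP5, RAB10 and RAB19 had 1 probe each, for which no second probe could be compared.

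**Figure D5:**
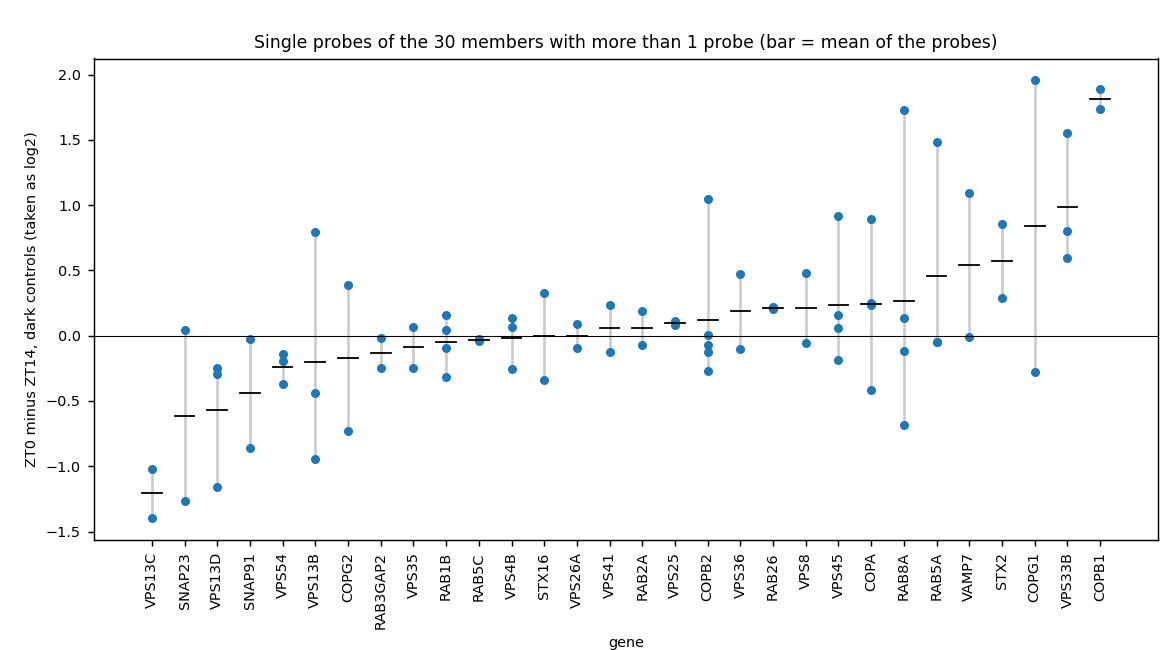
ZT0 minus ZT14 difference in darkness (taken as log2) for each probe (points) of the 30 genes with more than 1 probe, ordered by their mean (bars). The points of COPB1, VPS33B and VPS13C lie on 1 side of 0, and those of COPG1 and SNAP23 on both.

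Other genes of vesicle traffic came from 8 lists chosen by function. Of 393 listed genes outside the 65, 191 were measured. Late-night and early-night light called 0 of the 191, and the long day called 3 (1.57%, with 2.94% of all genes called). These were SEC23B, a COPII coat protein, with 1.38 ± 0.34, GGA2, a clathrin adaptor of the Golgi apparatus, with 0.99 ± 0.22, and TXLNA, a syntaxin-binding protein, with -1.06 ± 0.24 (limma adjusted p = 0.0473, 0.0309 and 0.0354). With 1 of the 4 pools left out at a time, the SEC23B call stayed without long-day pool 1 alone, that of TXLNA without paradigm 3 dark pool 3 alone, and that of GGA2 without paradigm 3 dark pool 4 or long-day pool 2. Between ZT0 and ZT14, 35 of the 191 were called in darkness, 22 higher and 13 lower (18.3%, with 19% of all genes called), and 25 after light, 18 higher and 7 lower (13.1%, with 11.7% of all genes called). By list, the calls in darkness were 5 of 27 genes of COPII and exit from the endoplasmic reticulum, 4 of 9 of other COPI and ARF GTPases, 4 of 28 of tethers and golgins, 5 of 31 of clathrin and adaptors, 7 of 31 of ESCRT and sorting nexins outside the VPS names, 3 of 18 of other SNARE machinery, 6 of 38 of RAB regulators and 1 of 9 of vesicle cargo, all to be read against the same 19%. From the called genes, 4 were picked after their values were seen. The sorting nexin SNX13 rose by 1.47 ± 0.13 in darkness and 1.05 ± 0.13 after light, and CLTB, the clathrin light chain B, by 1.61 ± 0.29 and 1.62 ± 0.29. DENND4A, an exchange factor for RAB10 in human cells, fell by 0.83 in darkness and 0.99 after light. EXOC6B, an exocyst subunit, fell by 1.73 in darkness. None of these calls stayed with ZT14 from paradigm 2 alone. There SNX13 differed by 0.55 in darkness and 0.28 after light, CLTB by 0.75 and 0.95, DENND4A by -0.11 and -0.43, and EXOC6B by -1.31 in darkness. Between the paradigm 3 and paradigm 2 dark pools, SNX13 differed by -1.84, CLTB by -1.73 and DENND4A by 1.44, all called.

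Markers of cell types were counted in the same comparisons, and their part in the values above was not tested. Of 10 measured macrophage and microglia markers, 0 had a positive late-night light difference, and their mean ratio ran between -0.442 and 0.012 after late-night light, against -0.039 and 0.347 in darkness at ZT0. Of 11 lymphoid markers 1 was positive, with mean ratios of -0.179 to -0.038 after late-night light, against -0.041 to 0.690 (median 0.152) in darkness, while all 7 markers of choroid plexus and ependyma were positive. In the other lists 4 of 10 neuron, 4 of 12 endothelial and pericyte, 3 of 5 glia, 4 of 5 pinealocyte and 1 of 4 erythroid markers were positive. None of these markers was called, and neither was any other gene in this comparison. For 10 neuron markers, the mean ratio was 0.066 to 0.534 in darkness at ZT0, against 0.635 to 0.877 in paradigm 3 and 0.325 to 0.448 in paradigm 2 at ZT14, and 2 of the 10 were called, both lower at ZT0 (10.4% of all genes called lower). In the same comparison the calls were 2 of 4 erythroid, 2 of 7 choroid plexus and ependyma, 1 of 12 endothelial and pericyte and 1 of 5 pinealocyte markers, with none in the lymphoid, macrophage and glia lists (19% of all genes called). After light 2 of 5 pinealocyte markers were called, and 1 each in the neuron, lymphoid, macrophage, erythroid, endothelial and choroid plexus lists, with none in glia (11.7% of all genes called). In the long day 3 of 12 endothelial and pericyte markers were called, 2 higher and 1 lower, with 1 of 10 macrophage markers higher, 1 of 7 choroid plexus markers lower, 1 of 5 pinealocyte markers lower and none in the other lists (2.94% of all genes called). Of 27 listed pinealocyte markers 5 were measured. NEUROD1, a transcription factor of pinealocytes and neurons, differed by -1.67 ± 0.41 in the long day and by 1.70 ± 0.29 between ZT0 and ZT14 after light (limma adjusted p = 0.0452 and 0.0046). TPH1, the tryptophan hydroxylase of melatonin synthesis, differed by -0.51 ± 0.16 between ZT0 and ZT14 in darkness and by -0.64 ± 0.16 after light (limma adjusted p = 0.0463 and 0.0259). The mean ratio of the 5 pinealocyte markers was -0.373 and -0.303 in the long day, against -0.067 and -0.052 in its dark controls. That mean includes the -1.67 of NEUROD1, while 3 of the 5 markers had a positive long-day difference and the median difference was 0.0. The lower mean is thus not a fall shared by the 5 markers. A ratio to a reference of the same glands cannot show whether a marker is absent.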

How the data were processed

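The values are the log ratios of both channels for each probe on 16 arrays, taken as log2, as deposited by the authors. Per the labels' protocols, the pineal pool and the reference of all pools carried the same 2 Alexa dyes on every array, so no dyes were swapped. How background and normalization were handled, which channel is the numerator and the log base are not given in sources used here. Of 15769 probes, 160 control spots were left out. A gene symbol was lacking for 5981 of the 15609 probes kept, and each of these was kept as its own gene. Of the 112 probes of the 65 genes, 111 had a gene ID in the reference gene table, and 0 genes had another current symbol. The probe without a match was the only probe of STX1A, so its symbol could not be checked in this way. Probes of 1 symbol were averaged, and genes needed values on 2 arrays in every group, which removed 159. Group means were fitted with limma 3.58.1 (R 4.3.3; lmFit, contrasts.fit, eBayes) over all 16 arrays, with 10 residual and 3.33 prior degrees of freedom. The fit was tested on simulated data with independent noise, of equal spread on all 16 arrays for each gene. That test cannot show how the wider spread of the paradigm 3 arrays bears on the calls. The p-values rest on the spread between pools of separate glands, with 1 spread per gene for all 6 groups. For ZT0 against ZT14 this is the spread within groups, and it leaves out the difference between paradigms 2 and 3 at ZT14. Deviations from group means had an SD over genes of 0.379 to 0.471 on the paradigm 3 arrays, against 0.224 to 0.258 in paradigm 2. A shared spread can therefore understate the error of comparisons with paradigm 3 and overstate that within paradigm 2. Named genes were those called for light, up to 6 with the smallest p in each direction for time of day, 3 with the smallest p in each light comparison, and measured genes of neuronal release. The 65 genes and all lists were chosen with earlier results of these data known. Alternatives covered normalization, probes, filters, weights, priors, blocks, control pools and left-out pools.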

Additional observations from a re-analysis of the deposited data

Results flagged for a closer look

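Single pools stood apart from the rest of their group in 2 of the genes named above, by a test of the gap between 1 sample and its nearest neighbour that chance passes in about 1 of 20 groups. RAB11FIP5 had a log2 ratio of 0.681 in late-night light pool 4, while its other 3 late-night light pools lay between -0.18 and -0.03. RAB28 had -0.345 in dark ZT0 pool 1, while the other 3 dark ZT0 pools lay between 0.14 and 0.19. Groups of 2 pools were not examined in this way. Since many named genes were examined, some such pools are to be expected from chance at that rate.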

How the results depend on the processing

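Over the single-gene differences named above and their alternatives, 954 alternative values kept direction and side of the threshold, 234 lost a call, 16 gained one and 13 turned in sign. The sign changes were those after light of VPS33B (-0.15), COPG1 (-0.13), VPS13C (0.13) and VPS13D (0.03) with ZT14 from paradigm 2 alone and without the paradigm 3 arrays, SNAP23 after light (-0.02 without late-night light pool 3, up to 0.17 with another pool left out), STX1A after late-night light (0.10, within slide series 39), STX1A after early-night light (-0.24, with all 4 ZT14 dark pools as controls) and VAMP2 after early-night light (0.02 without paradigm 2 dark pool 2, 0.07 without early-night light pool 1, down to -0.17 otherwise). None of these differences was called, and the cause was not tested. The paradigm 3 alternatives and the fits within a slide series were chosen after the data were seen.

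Counts of the 65 genes called moved as follows, with causes not tested. For the long day (1 called) the count was 0 with array weights, scaled arrays, genes with 1 probe only, the compared arrays only, quantile normalization or a replicate block, 2 with arrays centred on the median, and 1 to 6 with a pool left out (3 without long-day pool 1, 5 without paradigm 3 dark pool 3, 6 without pool 4). For ZT0 minus ZT14 in darkness (13) it was 0 with all 4 ZT14 dark pools as 1 group, without paradigm 3, or with paradigm 2 alone, 21 with paradigm 3 alone, 5 with quantile normalization, 6 with scaled arrays or the compared arrays only, 7 with 1-probe genes or slide series as a block, and 7 to 17 with a pool left out (7 without paradigm 2 dark pool 2, 8 without dark ZT0 pool 4). After light (5) it was 8 with array weights, 3 with scaled arrays or 1-probe genes, 2 with quantile normalization, 0 without paradigm 3 or with paradigm 2 alone, 14 with paradigm 3 alone, and 2 to 5 with a pool left out (2 without early-night light pool 1 or late-night light pool 4, 3 without long-day pool 1). For paradigm 3 dark minus paradigm 2 dark (11) it was 6 with array weights or 1-probe genes, 0 with scaled arrays, the compared arrays only or quantile normalization, and 6 to 20 with a pool left out (6 without paradigm 2 dark pool 2, 7 without paradigm 3 dark pool 3, 20 without pool 4). Without paradigm 3 dark pool 3 or 4 the mean ZT14 light comparison (0) gave 3 or 2, with 0 to 3 over the left-out pools, and the long-day minus early-night effect (0) gave 2, with 0 to 2. The late-night minus ZT14 light effect (0) ran from 0 to 1, with 1 without paradigm 3 dark pool 4. Late-night and early-night light stayed at 0 under each alternative run.

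Replicate numbers were shared between light and dark pools in paradigms 1 and 2. Deviations of same-numbered pools correlated at 0.308, 0.190, -0.000165 and 0.309 in paradigm 1 and 0.120 in paradigm 2, 1 of the 4 light pools of paradigm 1 correlated best with its own number, and the numbers were not taken as pairing. With the replicate block, 9 of the 65 were called for time in darkness and 4 after light, and VPS8 in the long day was not; over all genes, 954 were called after light, 109 in the long day and 1 in the mean ZT14 light comparison.

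Over all genes, counts moved too. The long-day count (369) was 0 with array weights, scaled arrays, the compared arrays only or quantile normalization, 98 with all 4 ZT14 dark pools, and 564 to 1194 with a pool left out. Time in darkness (2385) gave 98 with all 4 ZT14 dark pools as 1 group, 1532 with array weights, 921 with scaled arrays, 866 with quantile normalization, 1185 with the slide series block, 8 without paradigm 3, and 1448 to 3202 with a pool left out. Time after light (1468) gave 813 with scaled arrays, 727 with quantile normalization, 18 without paradigm 3, and 644 to 1609 with a pool left out. The paradigm 3 minus paradigm 2 dark count (2583) was 778 with array weights, 29 with scaled arrays, 0 with the compared arrays only, 18 with quantile normalization, and 1120 to 3229 with a pool left out. The mean ZT14 light count (37) was 0 to 4 under these settings and 1 with a trended robust prior, and 8 to 638 with a pool left out. Early-night light (1) ran from 0 to 65, the late-night minus ZT14 effect (9) from 1 to 118, the long-day minus early-night effect (3) from 0 to 389, and late-night light (0) from 0 to 3. Signal over background is unknown, and paradigms 2 and 3 have 2 pools a group.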
